A study of Mus musculus with 12 samples.

Results

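Calpains are intracellular cysteine proteases that are switched on by calcium and cut cytoskeletal, adhesion and signalling proteins at a few sites rather than degrading them. The classical enzymes pair a catalytic subunit, encoded by Capn1 or Capn2, with the small regulatory subunit Capns1, and are held in check by the dedicated inhibitor calpastatin, encoded by Cast. Capn5, Capn6, Capn7, Capn10 and Capn15 lack the calcium-binding domain through which the small subunit docks. Capn6 also lacks the cysteine of the active site, so it is not expected to cut proteins, and it is known to bind and stabilise microtubules. In neurons, calpains are known for cutting spectrin, microtubule-associated proteins and the Cdk5 activator p35.

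The family was taken as 9 genes: Capn6, the classical set Capn1, Capn2, Capns1 and Cast, and the other catalytic members Capn5, Capn7, Capn10 and Capn15. Each had exactly 1 probe set carrying its symbol alone, which gave 9 of the 35556 probe sets on the array (9 of 19938 named genes). The family was chosen by the values of Capn6, which was among the genes most reduced in knockdown cells. The differences of these 9 genes between knockdown and control cells are therefore given as descriptions, with no p-value. Another 7 family genes were listed as a comparison, of which Capn3 shared its probe set with a neighbouring gene and was not used.

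RNA came from N2A cells, a mouse neuroblastoma line that extends neurites when treated with retinoic acid. All cells carried a stably integrated short hairpin RNA vector and had been selected with 200 ug/ml hygromycin B. There were 4 groups of 3 arrays: knockdown (KD) cells, whose hairpin targets the long non-coding RNA Dali, after 72 h in 20 uM all-trans retinoic acid (RA) and 2% serum; control cells with a scrambled hairpin after the same treatment; proliferating KD cells in 10% serum; and proliferating control cells in 10% serum. RA and serum reduction came together and cannot be told apart. The study describes separate KD clones beside a single control line, and the labels do not say which clone is on which array, so a difference between clones and an effect of the hairpin cannot be told apart. No probe set carried the name or the cDNA accession of Dali, so the knockdown itself could not be checked here. The study describes the arrays of a group as biological replicates, and the labels do not say whether they came from separate clones or cultures, so a p-value here reflects just the array-to-array spread within groups.

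Arrays of 1 group correlated at 0.992 to 0.996 and arrays of different groups at 0.986 to 0.993. Of the 10 sympathoadrenal neuroblastoma markers measured, 10 lay above the median of all probe sets. The same held for 3 of 7 fibroblast markers (Col1a1, Col1a2 and Col3a1), 3 of 6 skeletal muscle markers (Acta1, Ckm and Myh3), 0 of 5 glial and 0 of 5 immune and endothelial markers. The summed neuroblastoma markers lay between 13.77 and 13.90 (log2) in KD cells after RA, 13.97 and 14.00 in control cells after RA, 14.13 and 14.19 in proliferating KD cells, and 14.139 and 14.142 in proliferating control cells. For muscle, a tissue in which calpains are abundant, the sums lay between 10.19 and 10.20, 10.20 and 10.27, 10.31 and 10.34, and 10.25 and 10.27 in the same groups. Their part in the results was not tested.

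The promoter of Capn6, the gene with the largest difference, is shown with that of Capn2, whose group means differed least among the classical enzymes. Both are RefSeq sequences of build GRCm38.p6, from 250 bases before to 50 after the start of transcription, 5′ to 3′ on the gene's own minus strand, with CG dinucleotides, the sites of DNA methylation, in capitals. The Capn6 window is chrX:143827363-143827662 and the Capn2 window chr1:182517561-182517860.
Capn6: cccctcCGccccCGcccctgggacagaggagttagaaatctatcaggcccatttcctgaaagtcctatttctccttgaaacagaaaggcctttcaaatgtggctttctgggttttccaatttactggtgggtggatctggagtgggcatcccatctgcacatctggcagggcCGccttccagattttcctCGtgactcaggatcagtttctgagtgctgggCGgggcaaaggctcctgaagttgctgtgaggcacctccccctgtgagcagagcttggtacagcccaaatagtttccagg
Capn2: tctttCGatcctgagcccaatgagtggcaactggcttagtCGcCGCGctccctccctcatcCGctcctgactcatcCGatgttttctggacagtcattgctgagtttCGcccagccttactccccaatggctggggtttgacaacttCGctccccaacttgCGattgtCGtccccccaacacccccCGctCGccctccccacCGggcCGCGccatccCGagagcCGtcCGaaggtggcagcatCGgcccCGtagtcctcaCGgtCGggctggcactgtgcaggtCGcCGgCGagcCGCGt
The Capn6 window held 5 CG dinucleotides and the Capn2 window 27, against a median of 7 over 32851 promoter windows of this length. Fewer CG than in Capn6 were found in 38.0% of all windows, and fewer than in Capn2 in 84.5%. RefSeq windows were matched for 8 of the 9 genes. The POU octamer ATGCAAAT, searched on both strands because Dali lies beside the POU factor gene Pou3f3, was in none of the 14 windows of these genes and in 1.74% of all windows. The half-site of retinoid receptors, AGGTCA, was in 1 of the 4 Cast windows, in no other window of the family and in 16.3% of all windows. Methylation and binding were not measured on these arrays.

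Capn6 was present at far lower levels in KD cells in both states. In proliferating KD cells its expression was 6.32, 6.66 and 6.60 (log2, normalised intensity of the probe set), against 9.45, 9.37 and 9.38 in proliferating control cells. The 3 KD arrays lay below the 3 control arrays with a wide gap. The difference was -2.88 ± 0.09 on the log2 scale (standard error, SE, of the fit over all 12 arrays), or 7.35-fold lower. After RA, Capn6 stood at 6.46, 6.24 and 6.17 in KD cells, against 8.977, 9.092 and 9.003 in control cells. The groups were again far apart, with a difference of -2.73 ± 0.09, or 6.64-fold lower. Among 19938 genes, the change of Capn6 ranked 2 from the lowest in proliferating cells and 3 after RA. These values chose the gene and carry no test. In KD cells the probe set lay on average at percentile 37.6 of all probe sets in proliferating cells and 32.5 after RA, against 82.9 and 78.0 in control cells. Probe sets bind with different strength, so these percentiles do not say whether Capn6 RNA was absent in KD cells. The deposited values carry no detection call, so the folds are those of the measured signal, and whether that signal had reached the background of the probe set was not tested. Fewer cells with the RNA and less RNA per cell cannot be told apart in these bulk samples.

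**Figure D1:**
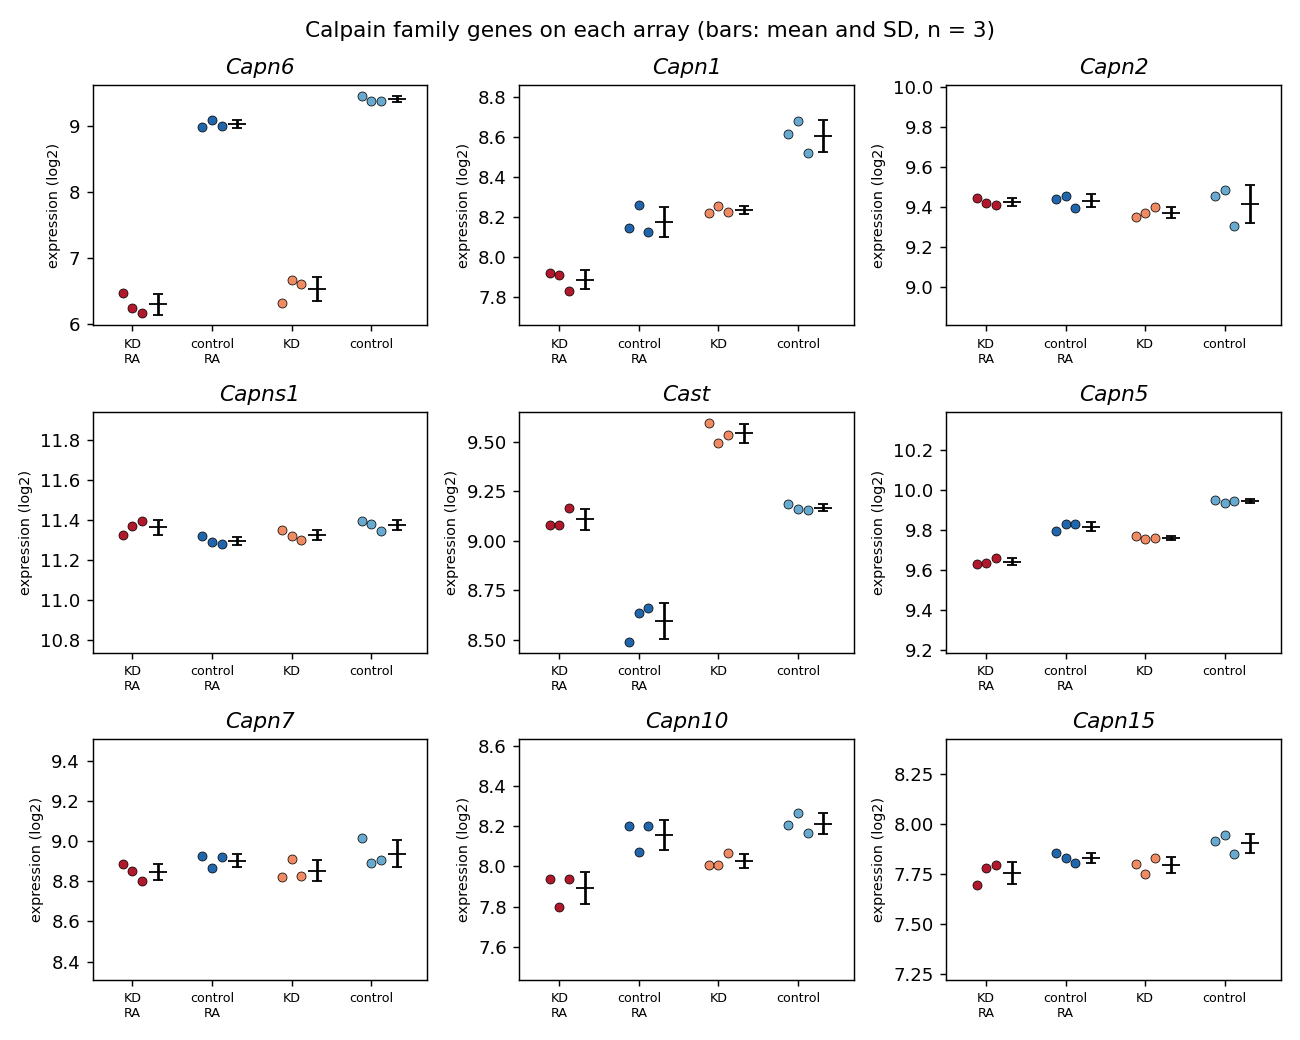
Expression (vertical axis, log2, scaled per gene) of the 9 calpain family genes. Points are single arrays and the bars to their right the mean with SD of 3 arrays, for KD cells after RA, control cells after RA, proliferating KD cells and proliferating control cells; all KD arrays of Capn6 lie between 6.17 and 6.66 and all control arrays between 8.98 and 9.45, Cast is higher in KD cells and lower after RA, and Capn2 and Capn7 overlap between KD and control cells.

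RA had a small effect on Capn6 beside the difference between the cells. In control cells the gene averaged 9.02 ± 0.06 after RA and 9.40 ± 0.05 in proliferating cells (SD, n = 3 each), and the RA arrays lay below all proliferating arrays. The change was -0.38 ± 0.09 (SE; adjusted p = 0.00748 in limma over 9969 genes). A gene is called here when its Benjamini-Hochberg adjusted p is under 0.05 and it changed by at least 1.3-fold, a log2 change of 0.38. Capn6 passed the first criterion in control cells and was just under the second, at 1.298-fold. The comparisons of RA and of KD share arrays, so their values are not independent of each other. Without the second or the third proliferating control array, or the second control array after RA, it was called (-0.39, -0.39 and -0.41). In KD cells Capn6 averaged 6.29 ± 0.15 after RA and 6.52 ± 0.18 in proliferating cells. These arrays overlapped, and the change of -0.23 ± 0.09 was not called (adjusted p = 0.0709 in limma). The difference between the RA responses of KD and control cells was 0.15 ± 0.13 (95% confidence interval -0.14 to 0.43, adjusted p = 0.619 in limma). Both this difference and the RA change in KD cells rest on the low signal of Capn6 in KD cells.

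Genes measured beside Capn6 on chromosome X had smaller KD differences, and most of them had a low signal. Capn6 was chosen as one of the most reduced genes, so smaller differences beside it were nearly fixed in advance. In RefSeq gene order the nearest measured protein-coding genes were Pak3, a p21-activated kinase gene, Chrdl1, a BMP antagonist gene, and Rtl9 on one side, and Dcx, which encodes the microtubule-binding protein doublecortin of migrating neurons, Alg13, a glycosylation enzyme gene, and the cation channel gene Trpc5 on the other. In proliferating KD cells their changes lay between -0.11 ± 0.11 (SE, Dcx) and 0.03 ± 0.06 (Chrdl1). Pak3 and Chrdl1 were among the less variable 50% of genes, which were left out of the calls. The other neighbours were tested and not called (6.96% of all genes tested were called). After RA, Dcx was lower in KD cells, at 5.30 ± 0.17, against 5.89 ± 0.22 in control cells (SD, n = 3 each). Its change was -0.60 ± 0.11 (SE, adjusted p = 0.00119 in limma), and the other 5 lay between -0.17 and 0.09. Of these, Rtl9, Alg13 and Trpc5 were tested and not called (7.71% of all genes tested were called). With RA Dcx rose in control cells (0.48 ± 0.11, SE; adjusted p = 0.00443 in limma). In KD cells it averaged 5.30 ± 0.17 after RA and 5.30 ± 0.06 in proliferating cells (SD, n = 3 each), a change of -0.01 ± 0.11 (SE, adjusted p = 0.972 in limma). Over the 50 nearest ordered genes expressed above the median level, 25 on each side, the median KD change around Capn6 was -0.08 in proliferating cells and -0.12 after RA. None of these 50 genes was as low as Capn6 in either state, which its rank among all genes nearly fixed in advance.

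The genes whose profile over the 12 arrays was nearest to that of Capn6 were Lix1, Tmsb4x, Cyp4f39, Arhgdib and Fam169a. Likeness was measured as the root mean square difference of log2 values centred on each gene's own mean, and was 0.317, 0.518, 0.549, 0.559 and 0.595 in that order, against a median of 1.41 over 19937 genes. Tmsb4x encodes the actin-sequestering protein thymosin beta 4, and Cyp4f39 belongs to the cytochrome P450 family. Since the profile of Capn6 is mostly its KD difference, the choice fixed that these genes were lower in KD cells, by -1.69 (Fam169a) to -4.01 (Tmsb4x) in proliferating cells and by -1.53 (Arhgdib) to -3.02 (Lix1) after RA. Their RA changes, given here without a test, did not share 1 sign. The RA change of Tmsb4x was 0.63 ± 0.13 in KD cells and -0.39 ± 0.13 in control cells (SE), that of Lix1 was -0.57 ± 0.11 and 0.25 ± 0.11, and that of Arhgdib was -0.13 ± 0.12 and -0.61 ± 0.12. In KD cells Tmsb4x, Lix1 and Arhgdib averaged between 5.58 and 6.33 (log2), so their RA changes there rest on a low signal.

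**Figure D2:**
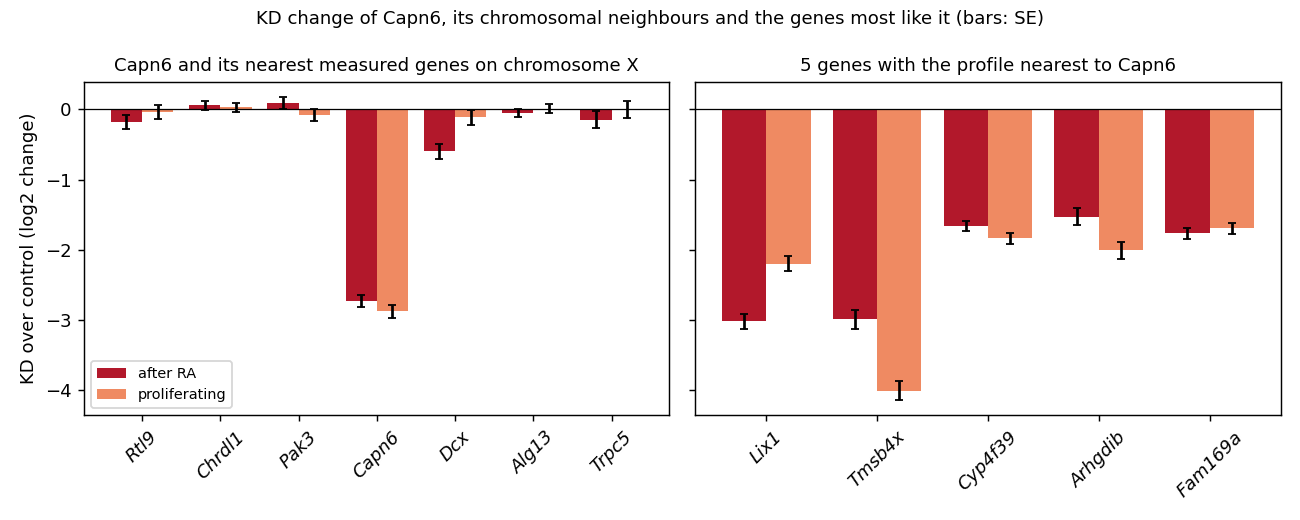
Log2 change of KD over control cells (vertical axis, bars with SE) after RA and in proliferating cells, for Capn6 between its 3 nearest measured genes on each side on chromosome X (left) and for the 5 genes nearest to it in profile (right). Capn6 changed by -2.73 after RA and -2.88 in proliferating cells, while among its neighbours the lowest value was that of Dcx after RA (-0.60). Most of these neighbours had a low signal.

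Among the classical calpain genes, the catalytic subunit gene Capn1 and the inhibitor gene Cast differed between the cells in opposite directions, and both fell with RA in control cells. In proliferating KD cells Capn1 stood at 8.22, 8.26 and 8.23, against 8.61, 8.68 and 8.52 in control cells. The groups did not overlap, and the difference was -0.37 ± 0.05 (SE), or 1.29-fold lower. After RA it stood at 7.92, 7.91 and 7.83 in KD cells, against 8.14, 8.26 and 8.12 in control cells, a difference of -0.29 ± 0.05 with no overlap. For Cast the values in proliferating KD cells were 9.60, 9.50 and 9.54, against 9.19, 9.16 and 9.15 in control cells. Every KD array was above every control array, with a difference of 0.38 ± 0.05, or 1.298-fold higher. After RA, Cast stood at 9.08, 9.08 and 9.17 in KD cells, against 8.49, 8.63 and 8.66 in control cells, a difference of 0.51 ± 0.05, or 1.43-fold higher.

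The RA response of both genes was in the same direction in both kinds of cell. Cast fell by 0.57 ± 0.05 in control cells (SE, adjusted p = 6.75e-06 in limma), or 1.49-fold, and by 0.44 ± 0.05 in KD cells (adjusted p = 6.28e-05), or 1.35-fold. In each kind of cell all 3 arrays after RA lay below all 3 proliferating arrays. Capn1 fell by 0.43 ± 0.05 in control cells (adjusted p = 8.15e-05 in limma), or 1.35-fold. In KD cells its change of -0.35 ± 0.05 had an adjusted p of 0.000385 in limma but was 1.27-fold, under the fold cutoff, again with no overlap. The responses of KD and control cells differed by 0.08 ± 0.08 for Capn1 and 0.14 ± 0.08 for Cast (SE), with 95% confidence intervals of -0.09 to 0.25 and -0.03 to 0.30 (adjusted p = 0.641 and 0.37 in limma).

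The log2 value of Capn1 minus that of Cast on the same array shows how unequally the protease gene and its inhibitor gene changed. Its absolute size depends on the 2 probe sets, so only differences between groups can be read. It was -1.31 ± 0.07 in proliferating KD cells and -0.56 ± 0.08 in proliferating control cells (SD, n = 3 each), a difference of -0.75. After RA it was -1.22 ± 0.10 in KD cells and -0.42 ± 0.10 in control cells, a difference of -0.80. Genes neighbouring Capn1 and Cast were shifted in the same directions in KD cells. The median over the 50 nearest was -0.09 around Capn1 and 0.31 around Cast in proliferating cells. After RA these medians were -0.19 and 0.31. How much of the KD differences in Capn1 minus Cast goes with these shifts was not tested. The RA changes were small. RA changed Capn1 minus Cast by 0.145 in control cells and 0.09 in KD cells (p = 0.2 and 0.3, exact two-sided permutation test). With 3 arrays against 3 the smallest p is 0.1, so this test could not pass 0.05.

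Capn2, the catalytic subunit gene of the second classical calpain, and Capns1, the gene of the shared small subunit, were nearly level across the 4 groups. Capn2 averaged 9.42 ± 0.02 in KD cells after RA, 9.43 ± 0.03 in control cells after RA, 9.37 ± 0.03 in proliferating KD cells and 9.415 ± 0.096 in proliferating control cells (SD, n = 3 each). The KD difference was -2.96% in proliferating cells (95% confidence interval -9.93% to 4.55%) and -0.48% after RA (-7.62% to 7.22%). RA changed Capn2 by 1.11% in control cells (-6.15% to 8.93%) and by 3.69% in KD cells (-3.75% to 11.7%). For Capns1 the means were 11.36 ± 0.04 in KD cells after RA, 11.295 ± 0.020 in control cells after RA, 11.32 ± 0.02 in proliferating KD cells and 11.37 ± 0.03 in proliferating control cells. The KD difference was -3.44% in proliferating cells (-9.02% to 2.49%) and 4.75% after RA (-1.31% to 11.2%), where the KD arrays lay above all control arrays by a narrow margin. Neither gene passed the filter on variation, which kept the more variable 50% of genes. With all 19938 genes in the fit, the adjusted p of RA was at least 0.231 for either gene in either kind of cell.

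Of the other catalytic members, Capn5 and Capn10 were lower in KD cells by small amounts, and Capn7 and Capn15 differed least. Capn5 is the family member closest to Capn6 in domain layout, and is known in humans for mutations that cause an inherited eye inflammation. In proliferating cells it stood at 9.77, 9.75 and 9.76 in KD cells, against 9.95, 9.93 and 9.94 in control cells. The arrays of each group lay close together, and the difference was -0.18 ± 0.04 (SE). After RA it stood at 9.63, 9.63 and 9.66 in KD cells, against 9.79, 9.83 and 9.83 in control cells, a difference again of -0.18 ± 0.04. RA lowered Capn5 by less than the fold cutoff, by -0.13 ± 0.04 in control cells and -0.12 ± 0.04 in KD cells (SE, adjusted p = 0.0311 and 0.0356 in limma over all 19938 genes). The first lost its adjusted p without any 1 of the 3 proliferating control arrays or the first control array after RA (adjusted p = 0.068 to 0.089 in limma), and the second without any 1 of the 3 proliferating KD arrays, the first or second KD array after RA, or the second proliferating control array (0.053 to 0.0926). With only the 2 groups compared in the fit, the adjusted p in limma was 0.0877 for Capn5 in control cells and 0.108 in KD cells. With the replicate number as a block, the adjusted p in limma was 0.0509 for Capn5 in control cells and 0.0558 in KD cells.

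Capn10, whose human counterpart was studied as a susceptibility gene for type 2 diabetes, averaged 8.03 ± 0.03 in proliferating KD cells and 8.21 ± 0.05 in proliferating control cells (SD, n = 3 each). The difference was -0.19 ± 0.06 (SE), and after RA, at 7.89 ± 0.08 in KD cells and 8.16 ± 0.075 in control cells (SD), it was -0.27 ± 0.06 (SE). The KD arrays lay below all control arrays in both states. RA changed Capn10 by -0.06 ± 0.06 in control cells and -0.14 ± 0.06 in KD cells (SE, adjusted p = 0.51 and 0.074 in limma), and neither change was called. Capn15, the counterpart of the fly gene small optic lobes, differed by -0.11 ± 0.05 in proliferating KD cells and -0.07 ± 0.05 after RA, with no overlap between KD and control arrays in either state. Capn7, which is known to bind the membrane-scission complex ESCRT-III, differed by -0.08 ± 0.05 and -0.06 ± 0.05, and its KD and control arrays overlapped in both states. RA changed Capn15 and Capn7 by -0.07 to -0.01 in either kind of cell, and none of these changes was called (adjusted p of at least 0.339 in limma over all genes).

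**Figure D3:**
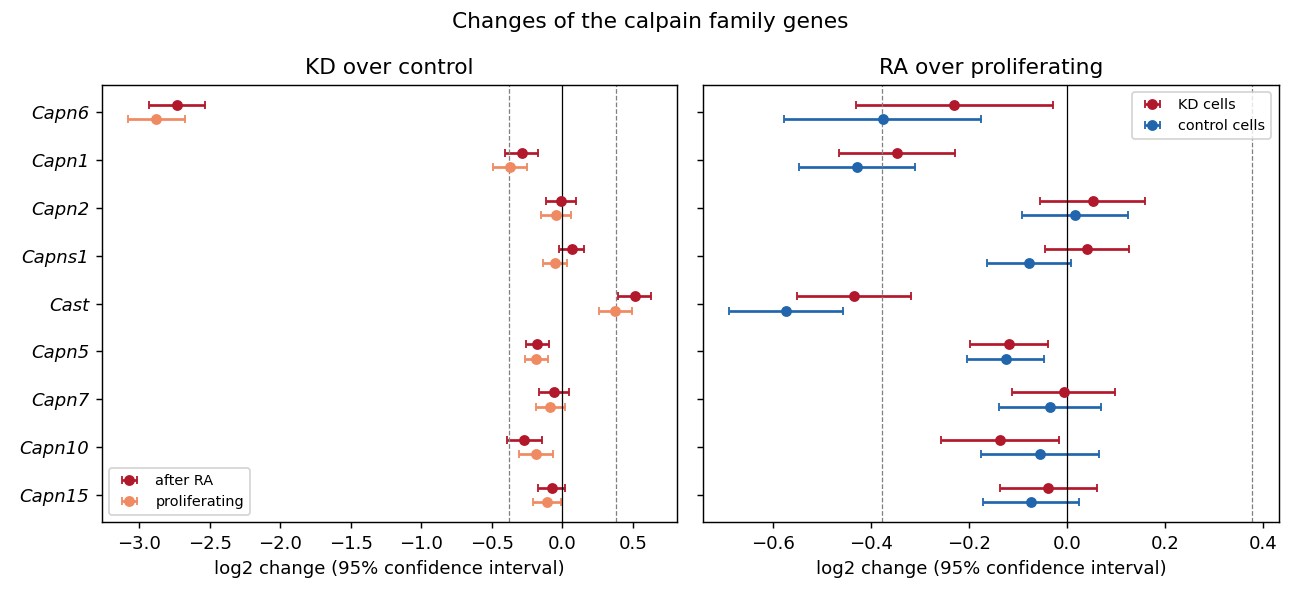
Log2 change (horizontal axis) with its 95% confidence interval for the 9 family genes, as KD over control cells after RA and in proliferating cells (left) and as RA over proliferating cells in KD and control cells (right), with dashed lines at the cutoff of 1.3-fold. Capn6 stands apart in the KD comparisons at -2.73 and -2.88, and Cast has the largest RA falls, of 0.44 in KD cells and 0.57 in control cells.

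Counted over the family, the changes called with RA were falls, those of Cast and Capn1. Of the 9 genes 4 passed the filter on variation, and 2 of these were called lower with RA in control cells, where 9.34% of all genes tested were called and 3.76% were called lower. In KD cells 1 was called lower, where 9.94% were called and 4.57% were called lower. Without the filter and the fold cutoff, 4 of the 9 genes were lower after RA in control cells at an adjusted p under 0.05, against 17.6% of 19938 genes in either direction and 8.92% lower, and 3 of 9 in KD cells, against 20.9% and 13.1% lower. By arrays alone, 5 of 9 genes had no overlap between RA-treated and proliferating arrays in control cells (33.5% of all genes) and 5 of 9 in KD cells (34.7%). In control cells all 5 were lower after RA, and in KD cells 4 were lower and Capn2 was higher. The median RA change of the 9 genes was -0.08 in control cells and -0.12 in KD cells, against 0.003 and -0.015 over all genes. In control cells the 9 genes lay on average at percentiles 60.9 to 96.4 of all probe sets, while the shares include genes of low signal. With 9 genes, and 4 in the filter, the counts are too few to set against these shares. The interaction was called for none of the 4 genes in limma (1.24% of all genes tested).

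In the KD comparisons 1 of the 4 filtered genes was called in proliferating cells (6.96% of all genes tested) and 2 of 4 after RA (7.71%). With the adjusted p alone and no filter the counts were 5 of 9 in both states, against 18.6% of all genes in proliferating cells and 21.6% after RA. By arrays alone they were 6 of 9 (38.7% of all genes) and 7 of 9 (34.0%). The median KD change was -0.11 in proliferating cells and -0.07 after RA, against -0.01 and -0.03 over all genes. Since the family was chosen with these comparisons known, nothing is read from these counts.

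The genes around Cast were shifted in KD cells in the same direction as Cast in both states, and those around Capn1 in the same direction as Capn1, more so after RA. Around Cast, on chromosome 13, the 50 nearest ordered genes above the median level were higher in KD cells by a median of 0.31 in both states, and 92.0% of them were higher. The difference of Cast exceeded this local median by 0.06 in proliferating cells, where 20 of the 50 neighbours were at least as high, and by 0.21 after RA, where 4 were. Single KD arrays had local medians of 0.316 to 0.336 in proliferating cells and 0.266 to 0.321 after RA. Around Capn1, on chromosome 19, the median was -0.09 in proliferating cells, where 0 of 50 neighbours were as low as Capn1, and -0.19 after RA, where 12 were. Of the Capn1 neighbours, 86.0% were lower in proliferating KD cells and 98.0% were lower in KD cells after RA. Over all ordered genes above the median level, the medians were 0.02 in proliferating cells and -0.02 after RA. Around Capn10 and Capn5 the local medians lay between -0.04 and 0.04, and these genes minus their local median lay between -0.23 and -0.15. What the neighbouring genes contribute to the values of Cast and Capn1 was not tested.

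The RA falls of Cast and Capn1 had no such counterpart. The 50 genes around Cast changed with RA by a median of 0.04 in control cells and -0.02 in KD cells, and 0 and 1 of them fell as far as Cast. Around Capn1 the medians were 0.001 and -0.05, with 0 and 3 genes as low.

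**Figure D4:**
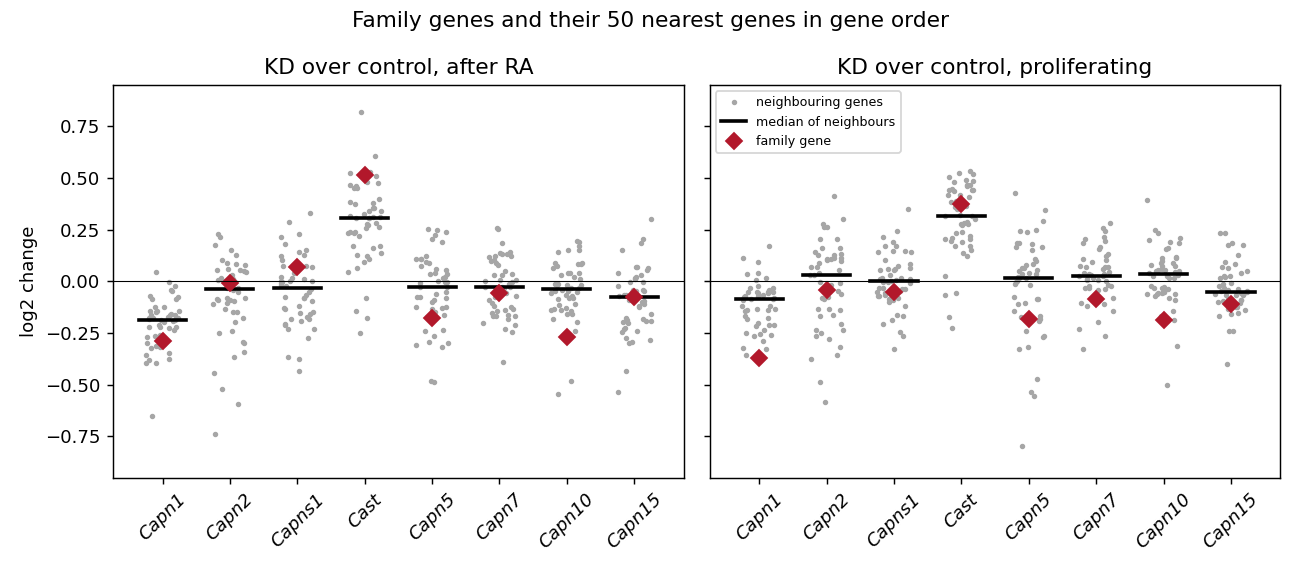
Log2 change of KD over control cells (vertical axis) after RA (left) and in proliferating cells (right) for 8 family genes (diamonds), with their 50 nearest ordered genes above the median level (grey points, spread sideways at random) and the median of these (black line). The neighbours of Cast are shifted upward as a group, by a median of 0.31, while the neighbours of most other genes centre near 0. Capn6 is left out for its scale.

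The remaining calpain genes had small differences. Capn8 and Capn9, which are known from the stomach, Capn11 from the testis, Capn12 and Capn13, and the second small subunit gene Capns2 were measured, 6 of 7 listed. None passed the filter on variation. Their KD changes lay between -0.05 and 0.10 in proliferating cells and between -0.13 and 0.09 after RA, and their RA changes between -0.06 and 0.07 in either kind of cell. Without the filter 0 of 6 had an adjusted p under 0.05 in limma in any of the 5 comparisons. Among all genes, 17.6% to 21.6% had such an adjusted p in the KD and RA comparisons, and 6 genes are too few to set against that share.

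Of 36 known calpain substrates listed, 32 were measured and 16 passed the filter. In proliferating KD cells 2 of the 16 were called (6.96% of all genes tested). The talin gene Tln2 was higher (0.46 ± 0.05, SE; adjusted p = 5.62e-05 in limma) and the calcium-dependent kinase gene Camk4 lower (-0.39 ± 0.06, adjusted p = 0.00066). The list was chosen with earlier results of these data known, so these calls are given as descriptions. After RA 0 of 16 were called in KD over control cells (7.71% of all genes tested). Tln2 (0.21 ± 0.05, SE) and Camk4 (-0.30 ± 0.06) kept their directions there, under the fold cutoff. With the adjusted p alone and no filter, 13 of 32 passed in each KD comparison, against 18.6% of all genes in proliferating cells and 21.6% after RA, and 10 and 9 of 32 passed for RA in control and KD cells, against 17.6% and 20.9%. With RA the synaptic scaffold gene Dlg4 was called lower in control cells (-0.40 ± 0.05, adjusted p = 5.54e-05 in limma). The growth cone genes Gap43 (-0.41 ± 0.04) and Dpysl3 (-0.40 ± 0.04) were called lower in KD cells (adjusted p = 1.16e-05 and 3.16e-05). Each also fell in the other kind of cell, under the fold cutoff. Dlg4 changed by -0.37 ± 0.05 in KD cells (adjusted p = 0.000103). Gap43 and Dpysl3 each changed by -0.19 ± 0.04 in control cells (adjusted p = 0.00323 and 0.00632). The interaction was called for none of these genes. The median change of the 32 substrates was -0.001 and -0.06 for KD in proliferating cells and after RA, and -0.01 and -0.095 for RA in control and KD cells. Spectrin alpha (Sptan1), the substrate most used to read calpain activity, did not pass the filter on variation and so could not be called. Its KD and RA changes lay between -0.10 and 0.03 (adjusted p of at least 0.127 in limma over all genes). RNA levels do not show whether a substrate protein was cut.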

How the data were processed

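RNA from 12 samples was measured on whole-transcript Affymetrix mouse arrays, 1 per sample. The authors deposited 1 log2 value per probe set and array, which they had made with RMA (background correction, normalisation to a shared distribution, summary of probes). RMA and limma are named in the submitters' processing notes, with versions not given in the sources used here. Quantile normalisation hides a change in total RNA per cell. Array medians lay between 7.146 and 7.209. For arrays, their number limits the precision.

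Symbols came from the platform annotation, of which 21789 probe sets had 1 symbol, 1621 several and 12146 none. RefSeq (GRCm38.p6) matched 21698 by gene identifier. It served for names, gene order and promoter sequences; no position of a probe set is given because the array's build is not stated. Where a gene had several probe sets, the one that varied most over the arrays (interquartile range) stood for it. Of 19938 genes the 50% that varied least were dropped, leaving 9969. Means of the 4 groups were fitted to the 12 arrays with limma 3.58.1 (lmFit, contrasts, eBayes; two-sided) in R 4.3.3, with Benjamini-Hochberg adjustment over all genes tested. Genes outside the filter are given from the same fit over 19938 genes. The fit was tested on simulated data.

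The family and the lists were chosen with earlier results of these data known. Named were all 9 members, the 3 nearest measured genes on each side of Capn6, the 5 genes nearest to it in profile, and called genes of the lists (up to 4 each). Sptan1 and the remaining calpain genes were added after their values were seen. Alternatives covered the filter, probe set choice, replicate block, samples in the fit, scaling, array weights, prior variance, fold cutoff and leaving out each array. The 50-gene neighbourhood was chosen after seeing the data. The result of 1 gene list is not reported here.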

Additional observations from a re-analysis of the deposited data

How the results depend on the processing

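Over all alternatives Capn6 stayed lower in KD cells: leaving out 1 array gave -2.94 to -2.77 in proliferating cells and -2.82 to -2.67 after RA, and subtracting the median of its 50 neighbours, a setting chosen after seeing the data, gave -2.80 and -2.61. In that setting Cast kept 0.06 and 0.21, Capn1 -0.28 and -0.10, and Capn15 after RA 0.003. The RA change of Capn6 in control cells was -0.41 to -0.35 with 1 array left out, and without the fold cutoff it would be called at -0.38 (adjusted p = 0.00748 in limma, 0.000736 to 0.0324 over the alternatives). Its RA change in KD cells, not called, had an adjusted p of 0.00938 to 0.258.

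Calls near the 1.3-fold cutoff moved. In proliferating KD cells 1 family gene was called, and 2 (with Capn1) with array weights or repeated quantile normalisation, 4 without the fold cutoff, and 1 to 3 with 1 array left out. It was 3 without the second KD array (Capn1 and Cast added), and 2 without the third KD or the first control array (Cast added) or the third control array (Capn1 added). After RA 2 were called, and 4 without the fold cutoff. For RA in KD cells 1 was called, and 2 without the fold cutoff.

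Small changes that were never called turned sign. With arrays centred on their medians the interaction was -0.00147 for Capn2, -0.0309 for Capn5, -0.0101 for Capn7 and -0.0031 for Capn15. With 1 array left out, Capn2 changed with RA in control cells by -0.0386 to 0.0504, Capn7 by -0.0582 to 0.00345 in control and -0.0271 to 0.0215 in KD cells, and the interaction was -0.0048 to 0.013 for Capn5 and -0.0108 to 0.0566 for Capn7. The cause was not tested.

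The replicate numbers were not taken as pairs, because not every correlation of same-numbered arrays (deviations from group means) was over 0.1. These correlations were -0.078 to 0.208, against -0.223 to 0.136 for other arrays, and 7 of 12 arrays correlated best with an array of their own number. With the replicate number as a block, 1, 2, 2, 1 and 0 family genes were called in the 5 comparisons, as without it. Over all genes, the interaction had 124 calls, and 41 to 137 with 1 array left out. Centring moved the share of higher calls from 48.1% to 34.0% for KD after RA and from 39.5% to 24.5% for the interaction.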
